A study of Mus musculus with 9 samples.

Results

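The genes described here encode splicing factors and hnRNP proteins. They were chosen by name among the protein-coding genes of an RNA-seq table of primary mouse embryonic fibroblasts (MEFs). A symbol beginning with Srsf and a digit, with Hnrnp, with Sf3a or Sf3b and a digit, or with Snrp made a gene a member. The rule used no measured value, though earlier results of these data were known when it was chosen. This gave 52 of the 19769 genes in the table, 15118 of which are protein-coding. They fall into 11 SR proteins, 20 hnRNP proteins, 9 subunits of the SF3A and SF3B complexes, and 12 Sm and U1 or U2 snRNP proteins.

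The study asked how the MYC level is set in single primary cells and what separates MEFs that hold a low MYC level from those that hold a high one. The MEFs were homozygous for Myc-Egfp (Myc-Egfp+/+), a fusion of enhanced GFP to MYC at the endogenous locus, and both groups received the proteasome inhibitor MG-132 at 20 µM for 6 h before they were sorted by GFP into low-MYC and high-MYC cells and seeded overnight. Each group has 2 RNA-seq libraries, which are technical replicates, so that every test below compares these libraries and its p-value measures technical spread only. A FUBP1 ChIP-seq peak list from 1 sample of primary MEFs was also used, as was a table of TACh-seq reads, which mark chromatin that a nuclease can reach. The TACh-seq samples are 2 of wild-type (WT) MEFs and 2 of KOKD MEFs, in which a Fubp1 knockout is joined by siRNA knockdown of Fubp2, so these reads do not come from the sorted Myc-Egfp+/+ cells. Both sorted groups share the fusion allele and the drug, and no RNA library of untreated or unsorted cells was analysed here.

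Most mammalian genes are transcribed with introns, and the spliceosome removes these from the pre-mRNA. Small nuclear ribonucleoproteins (snRNPs) recognize the ends of the intron, and the U2 snRNP binds the branch point through its SF3A and SF3B subunits. Most spliceosomal snRNPs carry a ring of Sm proteins. SR proteins and hnRNP proteins bind the transcript itself and, often in opposite directions, set how strongly a nearby exon is used. MYC is a transcription factor that binds E-box DNA, and splicing factor genes have long been studied among those that respond to it.

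The values are fragments per kilobase of transcript divided by a spike-in score (normalized FPK), which relates them to cell number. The normalized FPK of all genes summed to 46321 and 48291 in the low-MYC libraries and to 102853 and 109090 in the high-MYC libraries. Read depth per library was not given in the sources used here. Over the 11870 genes whose mean reached 0.1, the median log2 fold change of high-MYC over low-MYC cells was 1.03. Fewer cells and less RNA per cell cannot be told apart in such bulk samples, so a rise of all genes together depends on the cell counts behind the spike-in. Myc itself had 9.81 and 9.86 in the low-MYC libraries and 20.3 and 20.5 in the high-MYC libraries. All 12 fibroblast markers were detected in every library and summed to 344 and 349 in low-MYC and 826 and 843 in high-MYC cells. The 15 macrophage markers summed to 0.631 and 0.880 in low-MYC and 28.7 and 30.1 in high-MYC cells, with the defining markers Adgre1, C1qa and Tyrobp at 0 in at least 1 low-MYC library. The part of these markers in the values of the splicing factor genes was not tested.

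All 50 members that reached the mean of 0.1 were higher in high-MYC cells (limma with Benjamini-Hochberg adjustment, adjusted p under 0.01), and none was lower. Over all tested genes, 97.1% were higher and 0.0253% were lower by the same test, so the count of members called higher is close to that of genes at large. A rise of at least 2-fold was reached by 45 of the 50 (90.0%), against 55.1% of all tested genes. The pseudocount of 0.1 shrinks the fold changes of low genes. Of the 5608 genes whose mean reached 1, called expressed genes below, 85.1% rose at least 2-fold, and 49 of the 50 members are among them. The median log2 fold change of the members was 1.10 (range 0.90 to 1.28, SD 0.0779), and that of expressed genes was 1.12. No member's low-MYC and high-MYC libraries overlapped, nor did those of 99.0% of all tested genes. The 5th to 95th percentile of expressed genes ran from 0.91 to 1.41, and all members but Hnrnpa1 lay inside it.

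**Figure D1:**
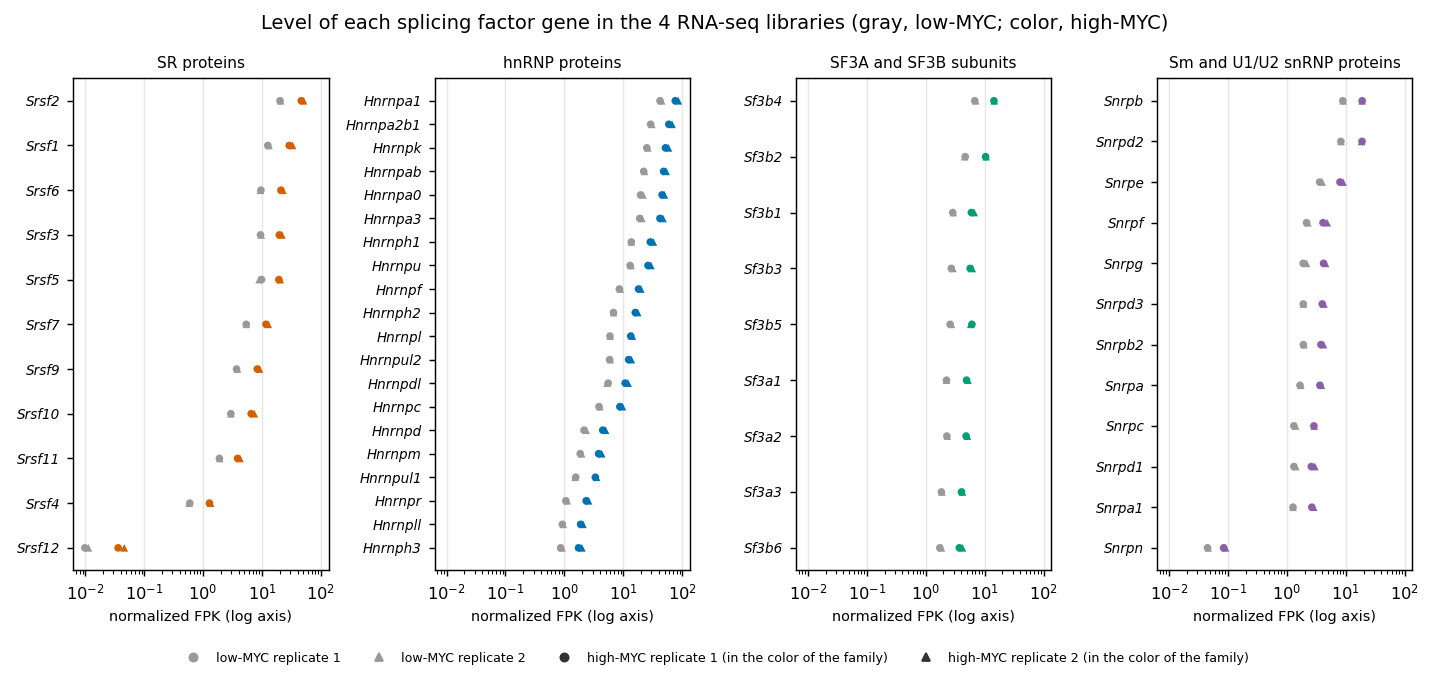
Normalized FPK (log axis) of the 52 genes in each of the 4 RNA-seq libraries, by family, with low-MYC libraries in gray, high-MYC libraries in color, circles for replicate 1 and triangles for replicate 2. In every row the high-MYC points lie to the right of the low-MYC points, from Hnrnpa1 with a mean of 62.1 down to Srsf12 with a mean of 0.0258.

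SR proteins carry an arginine and serine rich domain and mostly favor the use of exons to which they bind. All 10 tested members of this family rose at least 2-fold, with a median log2 fold change of 1.17 (range 1.04 to 1.26), the highest of the families. Srsf1, which encodes the founding SR protein and also acts in mRNA export and translation, had 12.5 and 13.1 in the low-MYC libraries and 28.9 and 33.0 in the high-MYC libraries. Its log2 fold change was 1.26 (SE 0.0733, limma with Benjamini-Hochberg adjustment, adjusted p = 1.99e-05), the largest of the tested SR proteins. Srsf2, which binds exonic enhancers and is mutated in human myeloid disease, had the highest level of the family, 20.2 and 20.7 against 46.3 and 50.6. Its log2 fold change was 1.24 (SE 0.0569, limma with Benjamini-Hochberg adjustment, adjusted p = 1.17e-05). The ratio of Srsf1 to Srsf2 within a library was 0.621 and 0.633 in low-MYC and 0.624 and 0.652 in high-MYC cells, and the groups overlapped. Srsf10, whose protein turns into a splicing repressor when it loses phosphate, had 2.95 and 2.97 against 6.54 and 7.38 (log2 fold change 1.20).

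Srsf6, Srsf9 and Srsf7 rose by log2 fold changes of 1.18, 1.18 and 1.15, and Srsf3, which also shuttles with exported mRNA, by 1.10. Srsf5, Srsf11 and Srsf4 had the smallest log2 fold changes of the family, 1.07, 1.04 and 1.04. Srsf4 was the lowest of the tested members, with 0.595 and 0.579 in the low-MYC libraries and 1.28 and 1.34 in the high-MYC libraries. Srsf5 was the member that differed most between the low-MYC libraries in the downward direction, 9.81 in replicate 1 and 8.93 in replicate 2. Srsf12 was listed but lay under the minimum and was not tested, with 0.00983 and 0.0113 against 0.0361 and 0.0458, a ratio of group means of 3.88 at these low levels.

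hnRNP proteins coat the nascent transcript, and several of them repress exons or shuttle with mRNA to the cytoplasm. They were the most abundant of the families, with 228 and 239 normalized FPK in sum in the low-MYC libraries and 475 and 529 in the high-MYC libraries, and 17 of the 20 rose at least 2-fold (median log2 fold change 1.11, range 0.90 to 1.28). The 4 members with the highest mean level were all hnRNP genes, and Srsf2 and Hnrnpa0 came next. Hnrnpa1, which encodes an exon-skipping factor that shuttles with mRNA, led them and ranked 188 of 19769 by level. It had 41.9 and 44.6 in the low-MYC libraries and 76.2 and 85.7 in the high-MYC libraries. The groups did not overlap, yet its log2 fold change of 0.90 (SE 0.0720, limma with Benjamini-Hochberg adjustment, adjusted p = 6.26e-05) was the smallest of the tested members.

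Hnrnpa2b1, the closest relative of Hnrnpa1, had 29.0 and 30.4 against 59.2 and 67.1, and its log2 fold change was 1.08 (SE 0.0720). Within a library the ratio of Hnrnpa1 to Hnrnpa2b1 was 1.44 and 1.47 in low-MYC cells and 1.29 and 1.28 in high-MYC cells, and these groups did not overlap. With 2 libraries against 2 an exact permutation test cannot give a p below 0.333, so no test was run on such ratios. Hnrnpk, which binds C-rich RNA and DNA, had 25.0 and 26.1 against 51.9 and 58.3 (log2 fold change 1.10). Hnrnpab, whose protein binds RNA and single-stranded DNA, had 22.2 and 22.9 against 48.3 and 53.2 (log2 fold change 1.17). Hnrnpa0, a relative that binds AU-rich mRNA, had 19.6 and 21.6 against 45.5 and 49.7 (log2 fold change 1.20, SE 0.0707, limma with Benjamini-Hochberg adjustment, adjusted p = 2.05e-05).

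Hnrnph2, an X-linked gene whose protein binds G-rich stretches, had the largest log2 fold change of the tested members, 1.28 (SE 0.0566, limma with Benjamini-Hochberg adjustment, adjusted p = 1.12e-05). Its values were 6.81 and 6.82 in the low-MYC libraries and 16.0 and 17.5 in the high-MYC libraries. Hnrnph1, the nearly identical autosomal relative, had 13.7 and 13.7 against 28.7 and 32.3, with a log2 fold change of 1.15 (SE 0.0644). The ratio of Hnrnph1 to Hnrnph2 was 2.01 in both low-MYC libraries and 1.80 and 1.84 in the high-MYC libraries, without overlap. Reads that fit both copies are split by the quantification, so values of such pairs are uncertain. Hnrnph3, a shorter member of that subfamily, had 0.863 and 0.913 against 1.74 and 1.98 and stayed under 2-fold on the log2(value + 0.1) scale (log2 fold change 0.98, SE 0.0744). Hnrnpll, which directs CD45 exon choice in lymphocytes, was also just under, with 0.922 and 0.956 against 1.88 and 2.06 (log2 fold change 1.00, SE 0.0600). Without a pseudocount, the ratio of group means was 2.09 for Hnrnph3, 2.10 for Hnrnpll and 1.87 for Hnrnpa1.

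Of the other hnRNP genes, Hnrnpc, whose protein measures transcript length as a tetramer, and Hnrnpl, which binds CA repeats, rose by log2 fold changes of 1.20 and 1.19. Hnrnpa3 rose by 1.16 and Hnrnpul2, Hnrnpul1, Hnrnpf and Hnrnpr by 1.11 each. Hnrnpr was among the 5 lowest tested members, with 1.06 and 1.11 against 2.34 and 2.57. Hnrnpu, a scaffold attachment protein of the nuclear matrix, and Hnrnpdl both rose by 1.06, Hnrnpm by 1.05 and Hnrnpd, the AU-rich element factor also called AUF1, by 1.04.

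**Figure D2:**
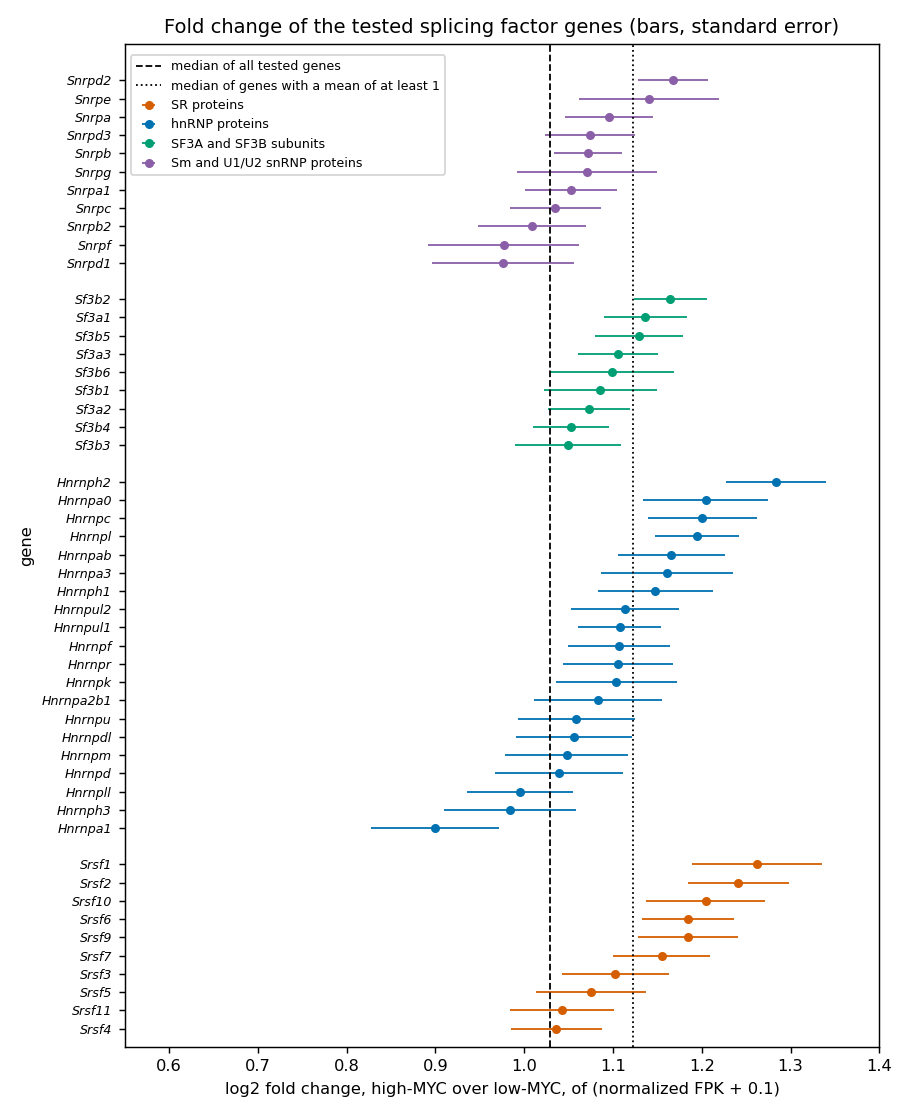
Log2 fold change of (normalized FPK + 0.1), high-MYC over low-MYC, for the 50 tested genes, grouped by family, with bars of 1 standard error, a dashed line at the median of all tested genes (1.03) and a dotted line at that of expressed genes, whose mean reached 1 (1.12). Hnrnph2, Srsf1 and Srsf2 lie farthest to the right, and Hnrnpa1 lies alone at 0.90.

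SF3A and SF3B hold the U2 snRNP on the branch point. Their 9 subunits formed the tightest family, since all 9 rose at least 2-fold within log2 fold changes of 1.05 to 1.16 (median 1.10, SD 0.0389). Sf3b1, the subunit that clamps the branch point and is often mutated in myelodysplasia, had 2.88 and 2.95 in the low-MYC libraries and 5.96 and 6.66 in the high-MYC libraries (log2 fold change 1.09, SE 0.0635, limma with Benjamini-Hochberg adjustment, adjusted p = 2.03e-05). Sf3b4 was the most abundant subunit, with 6.80 and 7.08 against 14.4 and 14.6, and Sf3b2 had the largest fold change, with 4.69 and 4.58 against 10.4 and 10.6 (log2 fold change 1.16). The SF3A subunits Sf3a1, Sf3a3 and Sf3a2 rose by 1.14, 1.11 and 1.07. Sf3b5, Sf3b6 and Sf3b3 rose by 1.13, 1.10 and 1.05.

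The Sm proteins form the ring around the snRNA, and Snrpa, Snrpc, Snrpa1 and Snrpb2 belong to the U1 or U2 particle alone. Of the 11 tested genes, 9 rose at least 2-fold, with a median log2 fold change of 1.07 (range 0.98 to 1.17). Snrpb, which encodes SmB, was the most abundant, with 8.87 and 8.98 in the low-MYC libraries and 18.9 and 18.8 in the high-MYC libraries (log2 fold change 1.07). Snrpd2, which encodes SmD2, had the largest fold change, with 8.22 and 8.26 against 18.8 and 18.5 (log2 fold change 1.17, SE 0.0392, limma with Benjamini-Hochberg adjustment, adjusted p = 1.04e-05). The remaining genes of the ring with at least 2-fold were Snrpe (1.14), Snrpd3 (1.07) and Snrpg (1.07) on the log2 scale. The particle-specific Snrpa, Snrpa1, Snrpc and Snrpb2 rose by 1.10, 1.05, 1.03 and 1.01.

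Snrpf and Snrpd1, which encode SmF and SmD1, were the 2 genes of this family under 2-fold. Snrpf had 2.15 and 2.26 against 4.09 and 4.81, and Snrpd1 had 1.31 and 1.41 against 2.59 and 2.97. Both had a log2 fold change of 0.98, with SE 0.0848 and 0.0800. Their high-MYC libraries lay farther apart than those of most members, with replicate 2 over replicate 1 at 1.18 and 1.15, while the median of the 50 tested members was 1.10. Snrpa1 was among the lowest members, with 1.27 in both low-MYC libraries against 2.64 and 2.83.

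Snrpn, the imprinted relative of Snrpb that replaces it in neurons, lay under the minimum with 0.0448 and 0.0462 against 0.0841 and 0.0904 and was not tested. Within a library Snrpb was 198 and 194 times as high as Snrpn in low-MYC cells and 225 and 208 times as high in high-MYC cells. A pair of processed pseudogenes also bears a member's name stem but is not protein-coding. Snrpert, a retrocopy of Snrpe, had 4.59 and 4.68 against 10.3 and 9.45, a mean of 7.26 that is above the 6.11 of Snrpe itself. Reads of Snrpe and its retrocopy may be shared between them, so the level of Snrpe is uncertain. Hnrnpa1l2-ps2 stayed at or under 0.0970 in every library.

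To ask whether any of these genes moved otherwise than the typical gene, the values of every library were divided by a factor that gave all 4 the same median over the tested genes, which removes the shared rise by construction. A value below 0 on this scale is a smaller rise and not a decrease. None of the 50 members was called higher and none lower by limma with Benjamini-Hochberg adjustment (adjusted p under 0.01), against 1.76% of all tested genes called higher and 0.531% called lower. At an unadjusted p under 0.05, 1 member was relatively higher and 9 relatively lower, against 17.3% and 15.8% of all tested genes. The 9 of 50 are near their background and the 1 of 50 is below its own.

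**Figure D3:**
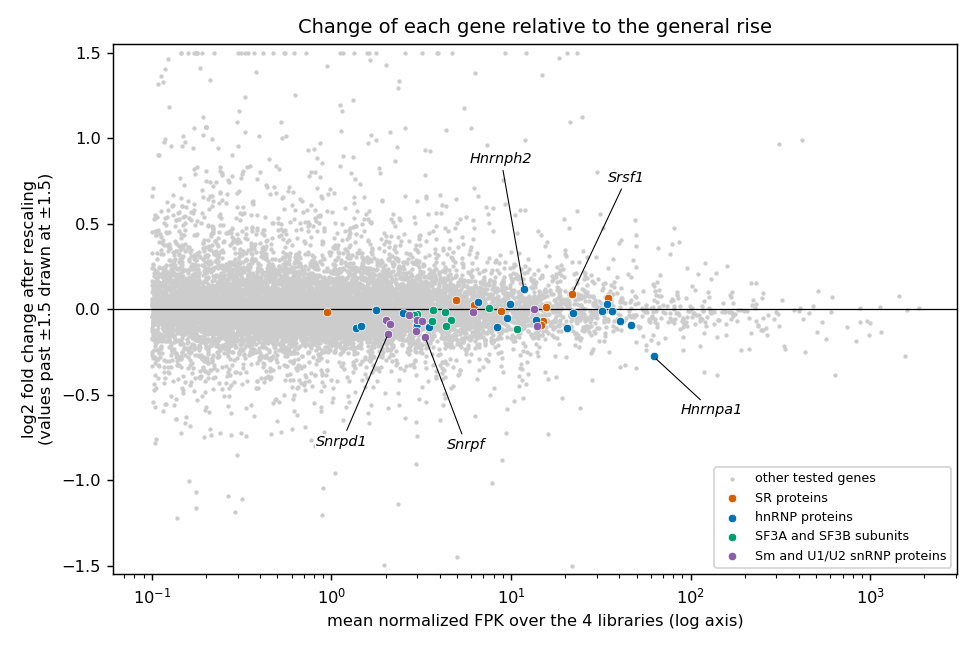
Log2 fold change after rescaling of the libraries to a common median (vertical axis, values past 1.5 in either direction drawn at that limit) against mean normalized FPK over the 4 libraries (log axis), with the 50 tested genes colored by family over all other tested genes in gray. The colored points form a narrow band between -0.28 (Hnrnpa1) and 0.12 (Hnrnph2), with 40 of the 50 below 0.

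On this scale the members' median was -0.06 against -0.00400 for all tested genes and -0.00617 for expressed genes. Of the 50, 40 lay below 0, while 6113 of all 11870 tested genes did. The families differed in this count: 5 of 10 SR proteins, 16 of 20 hnRNP proteins, 8 of 9 SF3A and SF3B subunits and 11 of 11 Sm and snRNP proteins were below 0. Under other scalings, other pseudocounts or with 1 library left out, the count ran from 34 to 41 of the 50. It was 40 of 49 with only expressed genes tested and 46 of 52 with no filter on low values. The median on the spike-in scale was above that of all tested genes, because the pseudocount weighs on low genes there. As ratios of group means with no pseudocount, the members' median was 2.18 and that of all tested genes 2.26.

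Hnrnpa1 was farthest below 0, at -0.28 (SE 0.0432, limma with Benjamini-Hochberg adjustment, adjusted p = 0.0344), which missed the threshold of 0.01. Over the 14 rescaled fits its value ranged from -0.32 to -0.24 and its adjusted p from 0.00624, with only expressed genes tested, to 0.169. The other members with an unadjusted p under 0.05 below 0 were Snrpf (-0.17), Snrpd1 (-0.14), Snrpb2 (-0.13), Sf3b4 (-0.11), Hnrnpu (-0.11), Hnrnpll (-0.10), Sf3b3 (-0.10) and Srsf11 (-0.09). Hnrnph2 lay farthest above 0, at 0.12 (SE 0.0313, limma with Benjamini-Hochberg adjustment, adjusted p = 0.0892). Srsf1 and Srsf2 were next, at 0.09 and 0.07, and did not reach an unadjusted p under 0.05. Myc lay at -0.13 on the same scale (limma with Benjamini-Hochberg adjustment, adjusted p = 0.105) and was not called lower.

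The share of all normalized FPK taken by a family uses no spike-in. The 52 genes together made up 0.791% and 0.787% in the low-MYC libraries and 0.754% and 0.780% in the high-MYC libraries, so the groups were apart but by less than the distance between the high-MYC libraries. hnRNP proteins took 0.493% and 0.496% against 0.462% and 0.485%. SR proteins took 0.164% and 0.159% against 0.162% and 0.168%, and these groups overlapped. SF3A and SF3B subunits took 0.0601% and 0.0591% against 0.0584% and 0.0574%, and Sm and snRNP proteins 0.0736% and 0.0731% against 0.0714% and 0.0702%. The splicing factor genes thus held nearly the same part of the transcript pool in both groups, most of it from hnRNP genes.

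**Figure D4:**
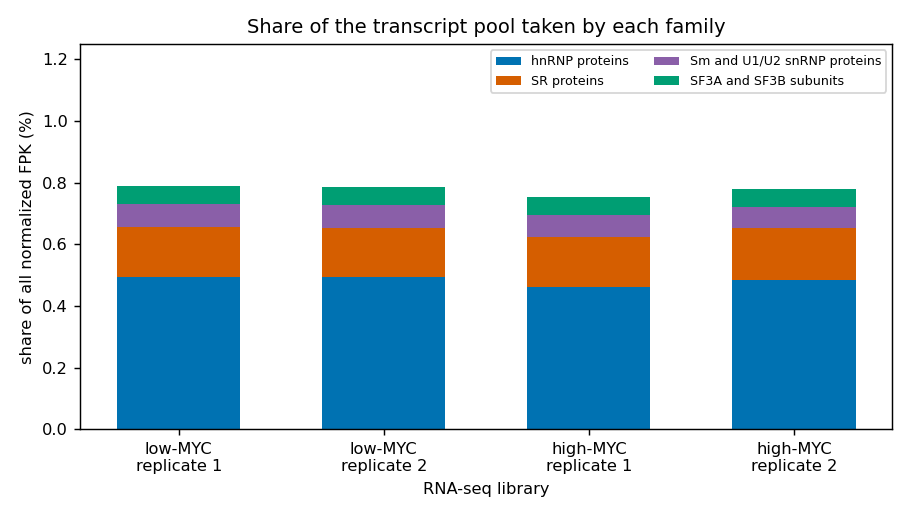
Share of all normalized FPK (percent, axis from 0) taken by each family in each RNA-seq library, as stacked bars. The bars reach between 0.754% and 0.791%, with hnRNP proteins as the largest block in each.

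The libraries of a group were not equal for these genes. In high-MYC cells, 47 of the 50 tested members were higher in replicate 2 than in replicate 1 (94.0%), by a median ratio of 1.10, while 81.1% of expressed genes were, by a median ratio of 1.06. In low-MYC cells, 42 of the 50 were higher in replicate 2 (84.0%), by a median ratio of 1.03, against 70.2% of expressed genes and a median ratio of 1.02. Among tested members the largest ratio between high-MYC libraries was 1.18 (Snrpf), and the only ones below 1 were Sf3b5 (0.956), Snrpd2 (0.983) and Snrpb (0.997). Leaving out replicate 1 of the high-MYC cells raised the number of members at least 2-fold higher to 49, and leaving out replicate 2 lowered it to 37. The count over all 11870 tested genes moved the same way, from 6540 to 7374 and to 5683.

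The rest of the splicing pathway was read from 6 lists outside the name rule, of which 136 genes were tested. All 136 were higher (97.1% of all tested genes were), 96 of them at least 2-fold (55.1% of all). None was called relatively higher or lower (1.76% and 0.531% of all). Many of these genes are low, where the pseudocount of 0.1 holds the fold change down: by the plain ratio of group means, 127 of the 136 and 88.8% of all tested genes were at least 2-fold higher. Of 56 other spliceosome components 45 rose at least 2-fold (median log2 fold change 1.07), from Ctnnbl1 (0.64) to U2af2 (1.18), the large subunit of the factor that reads the polypyrimidine tract. By the plain ratio 55 of the 56 did. Of the 13 genes that assemble the Sm ring 8 did (median 1.03), from Gemin8 (0.73) to Gemin4 (1.36), both parts of the SMN complex, and by the plain ratio all 13 did. Gemin4 had 1.00 and 0.916 in the low-MYC libraries and 2.71 and 2.52 in the high-MYC libraries.

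Kinases of the SRPK and CLK families phosphorylate SR proteins and so set where in the cell they act. Among the 7 tested SR protein kinases 2 rose at least 2-fold (median 0.94), from Srpk2 (0.79) to Srpk1 (1.08), and all 7 lay below 0 after rescaling. By the plain ratio 5 of the 7 did, and Srpk2 had a ratio of 2.26 against 2.23 for Srpk1, so their order rests on the pseudocount. The exon junction complex, which marks spliced mRNA, had 5 of 9 genes at least 2-fold higher (median 1.01), from Magohb (0.79) to its helicase Eif4a3 (1.14), and all 9 lay below 0 after rescaling. By the plain ratio 6 of the 9 did. After rescaling, 109 of all 136 tested genes of the 6 lists lay below 0, as did 6113 of all 11870 tested genes. Of 9 minor spliceosome genes 2 rose at least 2-fold (median 0.95), from Zmat5 (0.58) to Snrnp25 (1.19), and their levels were low, with a median of 0.561. By the plain ratio 8 of the 9 did, Zmat5 with 2.09 among them. Of 42 tested regulators of other families 34 rose at least 2-fold (median 1.07), from Esrp2 (0.69), an epithelial factor with 0.163 and 0.167 against 0.323 and 0.332, to the cold-inducible Cirbp (1.30) with 0.927 and 0.867 against 2.43 and 2.29. By the plain ratio 40 of the 42 did.

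MYC binds the E-box CACGTG, which reads the same on both strands, so a single search covers both. RefSeq promoters, taken here as 250 bases before to 50 after a RefSeq start on GRCm38.p6, were matched for 46 of the 52 members. No promoter was matched for Hnrnpll, Hnrnpul2, Sf3b4, Sf3b5, Snrpb and Snrpd1. CACGTG was found for 6 of the 46 genes (13.0%, exact 95% interval 4.94% to 26.3%), against 12.2% of 8174 tested protein-coding genes and 8.09% of 27025 genes of the promoter table. By promoter, 7 of 63 (11.1%) held it, against 10.3% of those of tested protein-coding genes. The comparison depended on the window. From 100 bases before to 50 after the start, the members stayed at 6 of 46 genes (13.0%), while tested protein-coding genes were at 7.82%. By promoter this was 11.1% against 6.54%. The exact interval of the members covers the background share of genes in both windows, so 46 genes cannot decide whether the motif is enriched. GC content was close to that of tested genes, with a median of 61.0% against 61.3%. The 30 bases around each match follow, 5′ to 3′ on the strand of the gene, with the E-box in capitals. They are shown to give every match in these 6 genes, and most members have none.
Hnrnpa3: cggatagcacatCACGTGgtgactggcccc
Hnrnpd: gcgctccggagcCACGTGaccgggacgcgc
Hnrnpf: cgagcgggcgctCACGTGgcccgaggcgcc
Hnrnph2: ccgagagttgctCACGTGaccgagatctca
Hnrnpm: gtcgttcggggtCACGTGagcgcgcaggcg
Snrpa, site 1: acgcctttcgcgCACGTGgactaatgggaa
Snrpa, site 2: gctcttgaaggtCACGTGatactggcggaa
Snrpa, site 3: cctttcccatccCACGTGatagaactcgca

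On GRCm38.p6 these windows lie at chr2:75659229-75659258 (Hnrnpa3, plus strand), chr5:99978953-99978982 (Hnrnpd, minus strand), chr6:117907713-117907742 (Hnrnpf, plus strand), chrX:134601182-134601211 (Hnrnph2, plus strand) and chr17:33685428-33685457 (Hnrnpm, minus strand). Those of Snrpa lie on the minus strand at chr7:27195812-27195841, chr7:27196286-27196315 and chr7:27196327-27196356, in a pair of annotated promoters. The motif began 16 bases after the start of Hnrnph2 and 14 after that of Hnrnpm. In the other promoters it began before the start, between 18 bases (Hnrnpa3) and 79 bases (Hnrnpf) upstream. Distances are from the start of the RefSeq promoter, which need not be the outermost annotated start used for the TACh-seq reads below. Those of Hnrnpf (chr6:117900324) and Hnrnpm (chr17:33686860) lie farther upstream, so both windows are inside the gene, as is that of Snrpa site 1. The 6 genes with the motif had a median log2 fold change of 1.10 (range 1.04 to 1.28) and the 38 tested genes without it also 1.10 (range 0.90 to 1.26). The largest fold change among tested members (Hnrnph2) belonged to a gene with the motif, while Srsf1 and Srsf2, the next largest, had none in this window. A match is a sequence of letters only, and binding of MYC was not measured here.

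FUBP1, which binds single-stranded DNA near the Myc promoter, had 166 ChIP-seq peaks in the deposited list, all on chromosome 15. Members on other chromosomes are not covered by this list, and the study reports FUBP1 binding at many genes besides Myc. Hnrnpa1 is the only member on chromosome 15 (mm10, chr15:103240432-103246692, plus strand, 6261 bases). A peak of 10400 bases at chr15:103240001-103250400 covered the whole gene, beginning 431 bases before its start and ending 3708 bases past its end. Of the 166 peaks 5 were wider, and the median width was 4200 bases. Another peak, of 3000 bases at chr15:103236201-103239200, lay upstream of Hnrnpa1 and did not overlap it. Of the 408 tested protein-coding genes of chromosome 15, 55 overlapped a peak (13.5%), and Hnrnpa1 was the 1 gene that lay wholly inside one (0.245%). Only a gene shorter than a peak can lie inside it, and no share among genes of like length was counted. Peaks were frequent at strongly expressed genes: 16 of the 33 protein-coding genes there whose mean reached 10 and 8 of the 8 whose mean reached 50 overlapped one. The list gives positions without scores and rests on 1 sample, so no error can be set on it. The study also reports some cross-reaction of its ChIP antibody with FUBP2, so a peak cannot be assigned to FUBP1 alone.

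The 250 bases before the RefSeq start of Hnrnpa1 lie inside the peak that covers the gene, at chr15:103240147-103240396, and are shown for that reason. They hold no CACGTG, 11 CG dinucleotides and 46.0% G and C, below the promoter median of the members, and no letters are marked.
Hnrnpa1: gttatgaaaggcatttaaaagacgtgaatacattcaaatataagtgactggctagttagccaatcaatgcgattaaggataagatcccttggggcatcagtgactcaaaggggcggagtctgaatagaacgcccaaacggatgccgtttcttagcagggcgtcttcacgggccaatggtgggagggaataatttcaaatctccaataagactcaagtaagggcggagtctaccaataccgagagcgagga

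TACh-seq reads were counted within 500 bases of each annotated gene start. The labels of all 4 TACh-seq samples point to this single table, which does not name the library of a read. The name of the table points to wild-type cells alone, but no group was taken from it, and wild-type and KOKD cells were not compared. Reads lay near the start of 41 of the 52 members (78.8%, exact 95% interval 65.3% to 88.9%), of 41 of the 50 tested ones (82.0%), and of 84.4% of tested protein-coding genes. The interval covers counting error only. The median was 111 reads for the members, 107 for tested protein-coding genes and 118 for expressed ones, of which 89.9% had reads. Hnrnpul2 had the most (415), followed by Snrpd2 (373), Hnrnpc (361), Hnrnpa1 (304) and Hnrnph3 (291).

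Reads were found at 10 of 11 SR genes, 18 of 20 hnRNP genes, 7 of 9 SF3A and SF3B genes and 6 of 12 Sm and snRNP genes. The 11 members without any were Hnrnpf, Hnrnpm, Sf3b3, Sf3b5, Snrpa1, Snrpb2, Snrpc, Snrpd1, Snrpf, Snrpn and Srsf12, and the smallest count among the others was 54 (Hnrnpk). No member had between 1 and 53 reads, and the table holds reads in limited regions of the genome, so an absence of reads here is an absence from those regions. The outermost annotated start was used, and transcription of a gene can begin elsewhere. Within 1000 bases the count rose to 43 of 52 (82.7%). Of the tested members, Hnrnpa1, with the smallest fold change, had 304 reads and Hnrnph2, with the largest, had 111.

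**Figure D5:**
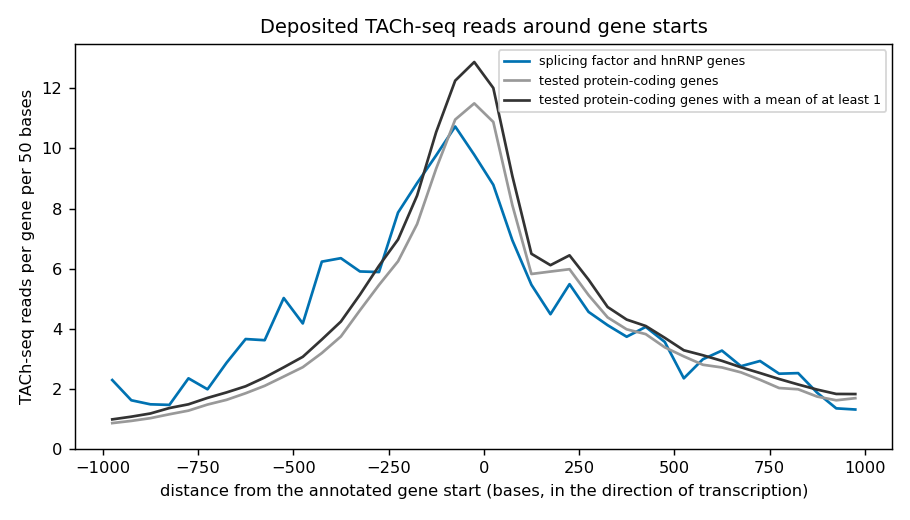
Deposited TACh-seq reads per gene in bins of 50 bases against distance from the annotated gene start (bases, in the direction of transcription), for the 52 splicing factor and hnRNP genes (blue), tested protein-coding genes (gray) and the expressed ones among these (dark gray). The members peak at 10.7 reads per gene in the bin centered 75 bases before the start, and the tested protein-coding genes at 11.5 in the bin centered 25 bases before it.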

How the data were processed

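The deposited RNA-seq values are a signal, normalized FPK on a linear scale. Per the methods, the authors removed 3′ bases of quality under 20, used TopHat with the mm10 mouse transcriptome and the E/M quantification of Partek, and divided by transcript length. They then divided by a score for each library, computed as the geometric mean of 10 ERCC spike-in RNAs that had been dosed by the number of cells. For ChIP-seq and TACh-seq the authors used Bowtie2 and SICER, and the deposited TACh-seq table gives read positions with a mapping quality score, of which only positions were used. Tool versions were not given in the sources used here.

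Here, log2(normalized FPK + 0.1) was fitted with limma 3.58.1 (lmFit, eBayes with trend) in R 4.3.3 over the 11870 genes whose mean reached 0.1, with Benjamini-Hochberg adjustment over all of them, and again after rescaling. Calls used an adjusted p under 0.01, with at least 2-fold where stated. Counts of reads at starts, promoters and shares were made in Python 3.11.15 with pandas 2.3.3. Gene positions of all 52 members matched GENCODE M21. The procedure was tested on simulated data. Genes given in full were the 5 with the largest and the 5 with the smallest fold change, the 5 highest and 5 lowest in level, those below the minimum, the fixed ratio pairs and those on chromosome 15. The extremes of each other list were named. Sf3b1, Sf3b2, Sf3b4, Snrpb and Snrpd2 were given values after these were seen. Members and lists were chosen with earlier results of these data known. Replicate numbers were not treated as pairs in the main fits.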

Additional observations from a re-analysis of the deposited data

How the results depend on the processing

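With a pseudocount of 1, which shrinks low genes most, 23 of 50 members and 12 of 136 genes of the other splicing lists were at least 2-fold higher. Of all 11870 tested genes 1448 were. The median log2 fold change was then 0.96 for the members and 0.527 for all tested genes. Rescaling each library to the same median moved the median of all tested genes from 1.03 to -0.00400 and that of the members to -0.0570, and 0 members were then called higher, at 2-fold or at any fold change. Under that rescaling the log2 values were -0.28 for Hnrnpa1, -0.0926 for Hnrnpa2b1, -0.0091 for Hnrnpab, -0.11 for Hnrnph3, -0.0715 for Hnrnpk, -0.10 for Hnrnpll, -0.0032 for Hnrnpr, -0.0647 for Snrpa1, -0.14 for Snrpd1, -0.17 for Snrpf and -0.0194 for Srsf4. As a relative call, 1 member (Hnrnpa1) became lower with a minimum mean of 1, where 213 of 5608 tested genes were. With an adjusted p under 0.05, 1 member was also called lower, and the share over all tested genes was not counted at that threshold. The cause was not tested. Leaving out 1 library, which leaves 1 group with a single library assumed to vary like the others, gave 37 to 49 members at least 2-fold higher, 68 to 118 genes of the other lists and a median of 1.04 to 1.15. Over protein-coding genes alone, the share of the members averaged 0.941% for low-MYC and 0.919% for high-MYC libraries. The other 101 alternatives stayed within 1.5 times the count, within the spread between libraries or, for TACh-seq reads, within the exact interval. For CACGTG the count of genes was the same. Many of these alternatives set 0 relative calls against 0. Where few or no genes could be called, as with the replicate number as a block, this could not have come out otherwise and shows no stability. Counted by plain ratios of group means, with no pseudocount and no test, 49 of 50 members and 127 of 136 genes of the other lists were at least 2-fold higher. Of all tested genes 88.8% were. These plain ratios and the ratios between replicates were chosen after seeing the data.

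Gene by gene, the deviations of same-numbered libraries had a correlation of 0.081 over all genes. A correlation does not register a shift that all genes share. Replicate 2 lay above replicate 1 for 67.6% of tested genes within the low-MYC group and for 78.9% within the high-MYC group. Whether libraries of the same number share more than that number was not tested. With the replicate number as a block, 45 members were still at least 2-fold higher and 0 were relatively higher or lower, while relative calls over all genes went from 209 higher and 63 lower to 0 and 0. Groups of 2 libraries allow no check for a library that stands apart, read depth is unknown, and the replicates are technical, so biological spread was not measured.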
